A study of Thunnus thynnus with 30 samples.

Results

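Of the 7295 gene rows counted by RNA sequencing in Atlantic bluefin tuna (Thunnus thynnus), sampled as whole larvae, 85 carry the names of cell cycle and DNA replication genes. Members were taken by gene name. They were cell division cycle (CDC) genes other than CDC42, cyclins A, B and E, and the kinases CDK1, CDK2, CDK4 and CDK6. To these came minichromosome maintenance (MCM), origin recognition (ORC) and GINS genes, replicative polymerases, the clamp loader and ribonucleotide reductase. Condensin, TOP2A, and kinetochore and spindle genes completed the set. All 85 were among the 7292 rows that passed the filter on low counts. The rarest member had 492 counts over all libraries, and the median member averaged 314 counts per library. In 10 of the 85 rows the name matches but the main known role lies elsewhere, for example Cdc40 and CDC5L in RNA splicing and cdc37 as a chaperone of kinases. These rows were kept in all counts and sums of members, and are also described apart. CDC16 and Cdc16, ORC5 and Orc5, and mcm5 and mcm5-a stand as separate rows, and how reads were divided within each such pair is not given in the sources used here, so their separate values are uncertain.

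Before a cell divides it copies its genome from many origins. In animal cells the origin recognition complex and CDC6 load the MCM helicase onto origins, a step called licensing; CDC45 and GINS then switch the helicase on, polymerases alpha, delta and epsilon copy the strands, and ribonucleotide reductase (RRM1 with RRM2) supplies the building blocks. In mitosis, cyclin B with CDK1 drives entry, condensin and topoisomerase II (TOP2A) compact and untangle the chromosomes, kinetochores attach them to the spindle, and CDC20 with the anaphase-promoting complex releases the sister strands. Many of these genes are transcribed mainly in dividing cells, and fish larvae grow fast through cell division in muscle, gut, brain and eye.

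Wild-type larvae ate live rotifers, tiny aquatic animals of the species Brachionus rotundiformis, whose dry matter held 2, 3.6 or 10.9 mg per g of the omega-3 fatty acid docosahexaenoic acid (DHA). These are the low, medium and high DHA groups. Per the labels, the rotifer levels came from dilutions of a custom enrichment product, and each level had 3 tanks. Larvae were sampled at 5, 10 and 15 days after hatching (dph), to follow how dietary DHA bears on development and growth. Each of the 9 groups had 3 libraries, except high DHA at 5 dph with 2 (replicates 2 and 3). The labels do not say how many larvae went into a library or whether the libraries of a group came from separate tanks, so p-values measure the spread between libraries.

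The 26 libraries held 12805866 to 19169404 counts. Levels are given as CPM, counts scaled to a common library size after TMM scaling. This scaling is meant to remove differences in depth and composition between libraries, and its factors ran from 0.808 to 1.14. Levels are compared between groups for a gene and not between genes. A gene was called changed at an edgeR adjusted p under 0.05 over all tested genes. A length score, the mean log2 level of 24 very long genes minus that of 80 nuclear respiratory chain genes, was lowest in 10 dph low DHA (-3.49 ± 0.490, SD, n = 3) and 5 dph medium DHA (-3.16 ± 0.398, SD, n = 3), and group means of the others lay from -2.83 to -2.28. Marker lists for neurons, neural progenitors, fast muscle, red blood cells, epidermis and gut were all detected, with no marker at 0 in any group mean.

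The mean summed level of the members was higher at each later age under every DHA level. Libraries overlapped between 10 and 15 dph in low and high DHA larvae, and between 5 and 10 dph in medium DHA larvae. At 5 dph it was 1947 ± 66.5, 2028 ± 32.8 and 2117 ± 86.0 CPM under low, medium and high DHA (SD, n = 3, 3 and 2). At 10 dph it was 2793 ± 62.4, 2224 ± 160 and 2513 ± 173 CPM, and at 15 dph 3105 ± 352, 3245 ± 128 and 2657 ± 125 CPM (SD, n = 3 each). At 10 dph low DHA larvae thus stood highest and medium DHA larvae lowest, without overlap between those 2 groups. At 15 dph high DHA larvae stood lowest, with a top library of 2750 CPM against a lowest low DHA library of 2739 CPM. As a share of unscaled counts the members held 0.207%, 0.184% and 0.22% at 5 dph under low, medium and high DHA. Low and medium DHA thus stood in the other order there. At 10 dph these shares were 0.254%, 0.217% and 0.239%, and low and high DHA libraries overlapped (0.239% to 0.277% and 0.227% to 0.246%). At 15 dph they were 0.326%, 0.334% and 0.296%, and low and high DHA libraries overlapped again (0.285% to 0.366% and 0.28% to 0.309%). In high DHA larvae the share was thus higher at 15 than at 10 dph without overlap, whereas the scaled sums overlapped. Their TMM factors ran from 1.09 to 1.14 at 15 dph and from 0.928 to 0.981 at 10 dph. By group mean, 43 members were highest in medium DHA and 17 in low DHA at 15 dph, and 12 were highest in low DHA at 10 dph. The lowest mean fell in low DHA at 5 dph for 38 members and in medium DHA at 5 dph for 31. How all tested genes divide by highest and lowest group is not given here, so these counts have no background beside them. Rows with a main role elsewhere held 416 CPM of the summed level in low DHA at 5 dph and 475 CPM in high DHA at 15 dph. In RNA from whole larvae, fewer dividing cells and less of these transcripts per cell cannot be told apart.

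**Figure D1:**
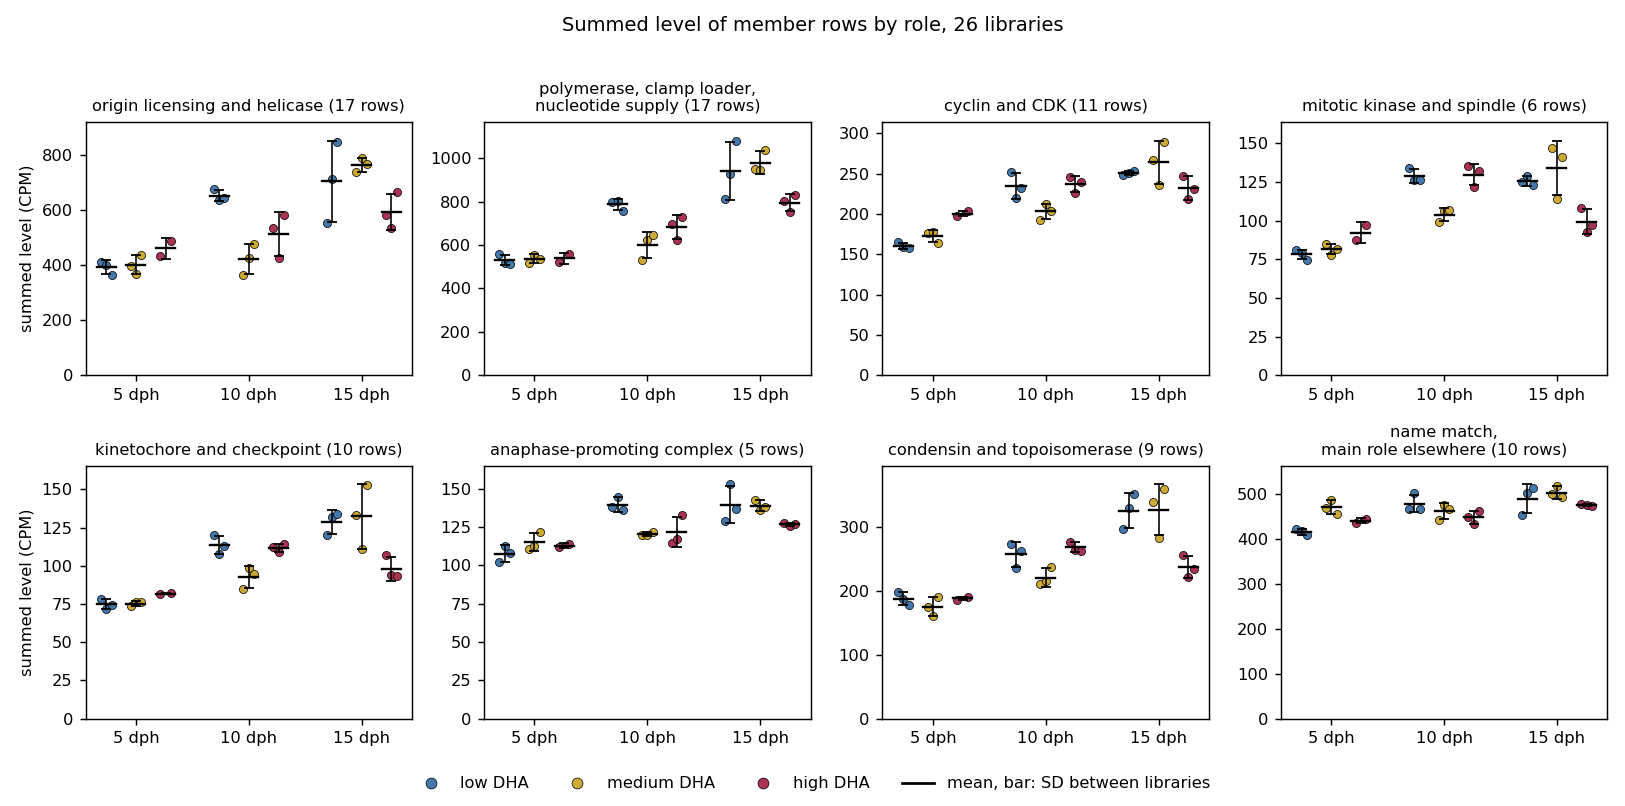
Summed level in CPM (y axis, from 0) of the member rows of each role in every library (points), by age (x axis) and DHA level (colour, low to high from left to right); lines are group means and bars the SD between libraries. The origin and helicase rows of 10 dph larvae lie highest in low DHA (654 ± 21.3 CPM) and lowest in medium DHA (423 ± 55.5 CPM), and the condensin and topoisomerase rows of 15 dph larvae lie lowest in high DHA (237 ± 17.5 CPM).

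The roles did not share the same order of groups. The 17 origin licensing and helicase rows summed to 654 ± 21.3, 423 ± 55.5 and 514 ± 80.3 CPM under low, medium and high DHA at 10 dph. At 15 dph they summed to 705 ± 147, 766 ± 25 and 594 ± 66.2 CPM (SD, n = 3 each). The 9 condensin and topoisomerase rows had 257 ± 19.8, 221 ± 14.3 and 268 ± 8 CPM at 10 dph and 325 ± 27.6, 327 ± 40.0 and 237 ± 17.5 CPM at 15 dph. High DHA larvae therefore had condensin levels near those of low DHA larvae at 10 dph, and below both other levels at 15 dph. The 6 mitotic kinase and spindle rows gave 129 ± 4.72, 104 ± 4.46 and 130 ± 6.78 CPM at 10 dph, and 126 ± 3.27, 134 ± 17.5 and 99.2 ± 8.06 CPM at 15 dph. The anaphase-promoting complex rows spanned a narrower range, with group means from 108 to 140 CPM over all ages.

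In low DHA larvae nearly the whole set was higher at 10 than at 5 dph. Of the 85 members 67 rose and 3 fell (78.8% and 3.53%), against 30.3% and 28.9% of all tested genes, and the median log2 fold change of the members was 0.59, against 0.04 over all genes. Of the 67, 64 had no overlap between the ages (29.4% of all genes rose in this way). The 3 that fell, cdc37l1, mcm9 and CDC73, were all rows with a main role elsewhere. Rises covered 16 of 17 origin and helicase rows, 14 of 17 polymerase and nucleotide rows, 9 of 11 cyclin and kinase rows, 6 of 6 spindle rows, 9 of 10 kinetochore rows and 8 of 9 condensin rows.

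CDC6, the helicase loader, had 8.32, 8.9 and 8.83 CPM at 10 dph, against 3.6, 3.69 and 2.17 CPM at 5 dph in low DHA larvae. Its log2 fold change was 1.46 ± 0.27 (SE, edgeR adjusted p = 7.3e-05), and the ages lay far apart. mcm5, a subunit of the helicase ring, had 117, 122 and 105 CPM at 10 dph, against 50.2, 51.8 and 46.6 CPM at 5 dph (1.21 ± 0.18, edgeR adjusted p = 7.4e-06). For rrm2, the small subunit of ribonucleotide reductase that is made mostly in dividing cells, levels were 81.7, 66.9 and 75.3 CPM at 10 dph, against 39.4, 32.5 and 35 CPM at 5 dph (1.07 ± 0.15, edgeR adjusted p = 4.9e-06). Every 10 dph library of low DHA was above every 5 dph one for these 3 genes. cdk1, the mitotic kinase, had 34, 37.6 and 39.3 CPM at 10 dph, against 17.4, 17.4 and 19 CPM at 5 dph (1.04 ± 0.13). CDC20, the activator of the anaphase-promoting complex, had 26.2, 26.3 and 26 CPM at 10 dph, against 13.3, 14 and 12 CPM at 5 dph (1.00 ± 0.11). The 10 dph libraries of CDC20 differed by less than the 5 dph ones. Under a length score covariate 35 members passed, 34 of them among the 70, and the members' median was 0.64. In the same step 7 of 9 neuron markers and 9 of 10 epidermis markers fell, and 10 of 13 fast muscle, 7 of 15 gut and 4 of 9 neural progenitor markers rose. Summed neuron markers ran from 479 to 679 CPM at 10 dph and from 934 to 963 CPM at 5 dph, and summed fast muscle markers from 61100 to 70300 and from 42600 to 44300 CPM; their part in the result was not tested.

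In medium DHA larvae the larger step came later. From 5 to 10 dph 20 members rose and 1 fell (23.5% and 1.18%), against 15.0% and 19.1% of all tested genes, with a members' median log2 fold change of 0.18. From 10 to 15 dph 59 rose and 3 fell (69.4% and 3.53%), against 17.2% and 15.6% of all genes, with a median of 0.53, and 58 of the 59 had no overlap (16.6% of all genes rose so). In this later step 16 of 17 origin and helicase rows, 14 of 17 polymerase and nucleotide rows and 9 of 9 condensin and topoisomerase rows rose. The earlier step had 9 calls once the length score was a covariate, and without 5 dph medium replicate 2 or 10 dph medium replicate 2 or 3 it had 11, 12 and 7; the later step had 65 calls with the score. In the earlier step 7 of 10 epidermis and 6 of 13 fast muscle markers rose, while PKP3, an epidermis marker, fell by 0.78. The gut markers of smallest p, Npc1l1, CDX1, Olfm4 and SLC15A1, rose there. The neural progenitor markers VIM, Hes5 and vim fell by 1.04, 0.56 and 0.33. In the later step 5 of 15 gut and 4 of 9 neural progenitor markers fell. The part of these markers in the result was not tested.

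rrm1, the large subunit of ribonucleotide reductase, had 246, 244 and 279 CPM at 15 dph, against 86, 110 and 126 CPM at 10 dph in medium DHA larvae. This was a log2 fold change of 1.26 ± 0.15 (SE, edgeR adjusted p = 5.2e-06), and no 10 dph library reached the lowest 15 dph one. cdc45, which activates the helicase, had 8.79, 7.67 and 10.9 CPM at 15 dph, against 4, 3.52 and 3.52 CPM at 10 dph (1.31 ± 0.19, edgeR adjusted p = 2.8e-05). ccne1, a cyclin of S phase entry, had 2.31, 2.75 and 3.05 CPM at 15 dph, against 0.967, 0.917 and 1.35 CPM at 10 dph (1.31 ± 0.25). smc2, a core condensin subunit, had 56.1, 49.2 and 62.2 CPM at 15 dph, against 27.7, 30.4 and 34.2 CPM at 10 dph (0.86 ± 0.13, edgeR adjusted p = 4.2e-05). For each of these genes the ages were apart.

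**Figure D2:**
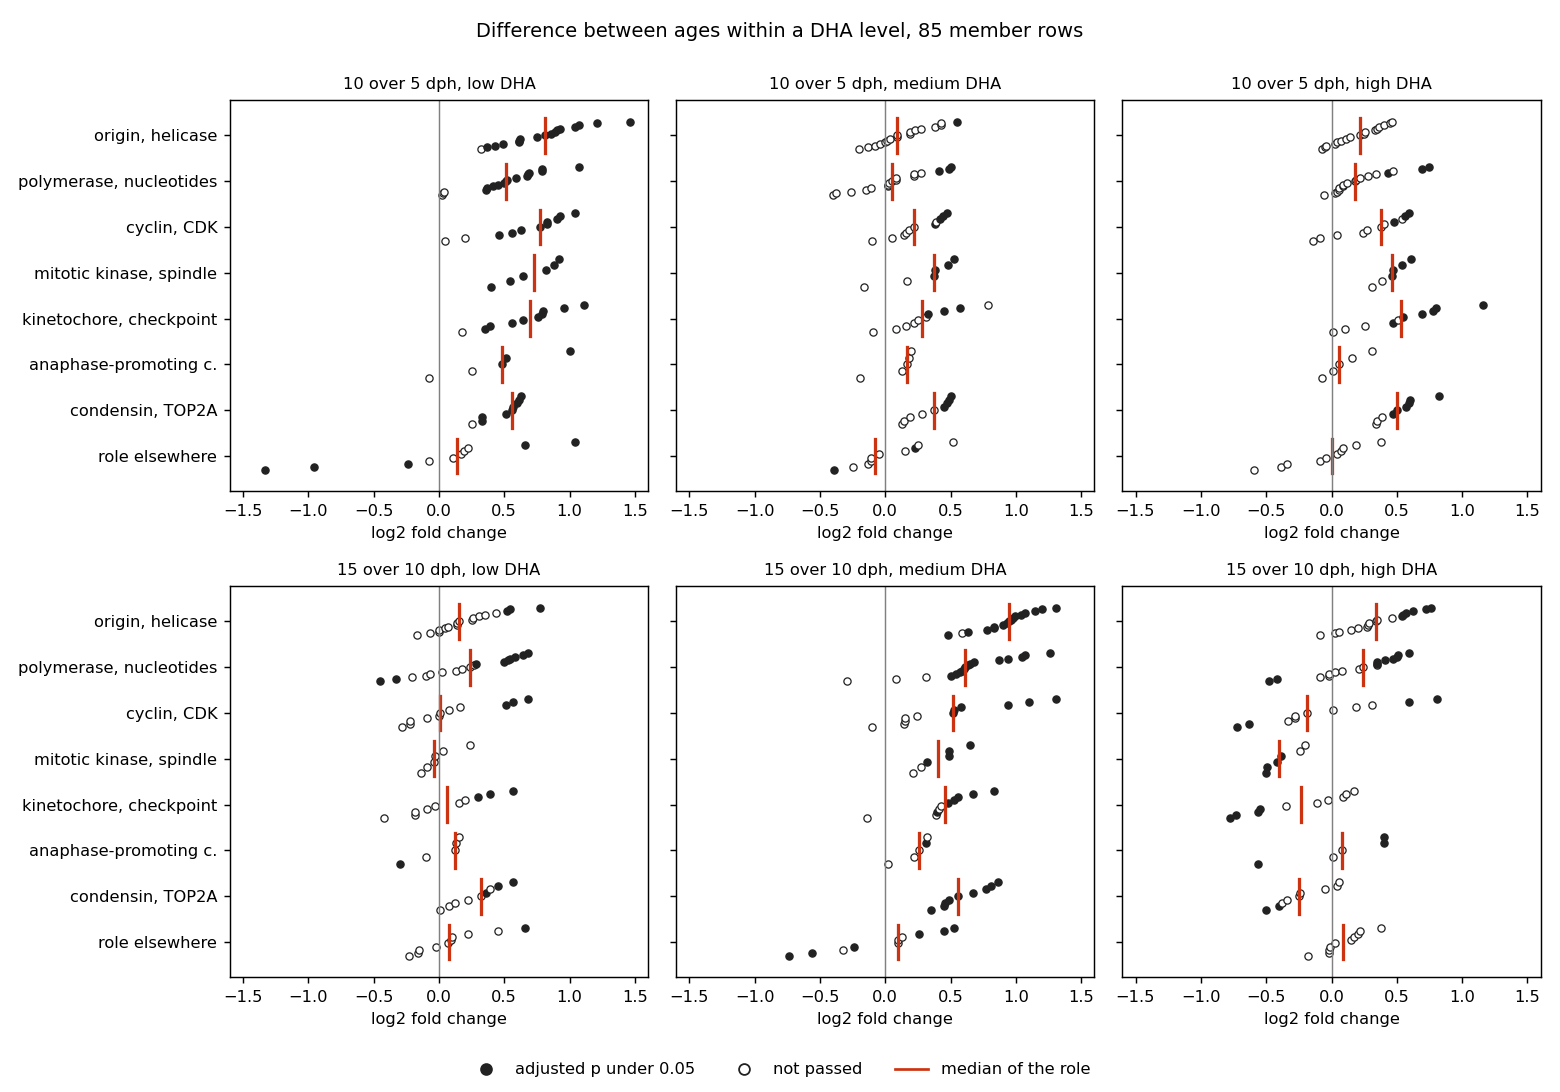
Log2 fold change between ages (x axis) of each member row, by role (y axis), for 10 over 5 dph (upper row) and 15 over 10 dph (lower row) in low, medium and high DHA larvae; filled points passed an adjusted p under 0.05 and red lines are role medians. Most points are filled for 10 over 5 dph in low DHA (70 of 85) and 15 over 10 dph in medium DHA (62 of 85), and points lie on both sides of 0 for 15 over 10 dph in high DHA (17 rose, 15 fell).

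Low DHA larvae changed less in the later step. From 10 to 15 dph 20 members rose and 3 fell (23.5% and 3.53%), against 26.6% and 16.2% of all tested genes, so the share of rises was near that of all genes. ORC3, an origin recognition subunit, rose by 0.77 ± 0.18 on the log2 scale (SE, edgeR adjusted p = 0.0019) and pola1, the catalytic subunit of polymerase alpha, by 0.68 ± 0.12. CCNE2, an S phase cyclin, rose by 0.68 ± 0.15, and CDC20 fell by 0.30 ± 0.11 (edgeR adjusted p = 0.034). The length score was -2.54 at 15 dph and -3.49 at 10 dph in these larvae, and with it as a covariate 1 member was past the threshold. Without 10 dph low replicate 2, the library with the lowest score, 14 were. In the same step 7 of 9 neuron markers rose and 5 of 9 neural progenitor markers fell; their part in the result was not tested.

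In high DHA larvae the earlier step was made up mostly of mitotic genes. From 5 to 10 dph 22 members rose and 0 fell (25.9% and 0%), against 8.69% and 7.68% of all tested genes, and all 22 had no overlap (8.67% of all genes). Rises took 6 of 9 condensin and topoisomerase rows, 6 of 10 kinetochore rows, 4 of 6 spindle rows and 3 of 11 cyclin and kinase rows. None of the 17 origin and helicase rows passed (median log2 fold change 0.22), and 3 of 17 polymerase and nucleotide rows did.

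NCAPD3, a subunit of condensin II, had 14.4, 14 and 13.9 CPM at 10 dph, against 8.01 and 7.92 CPM at 5 dph in high DHA larvae (0.82 ± 0.18, SE, edgeR adjusted p = 0.0032). nuf2, which holds microtubules at the kinetochore, had 12, 10.8 and 12.1 CPM, against 6.62 and 6.79 CPM (0.80 ± 0.15, edgeR adjusted p = 0.0014). TOP2A had 53.4, 51.1 and 46.5 CPM, against 34.3 and 32.6 CPM (0.59 ± 0.14). The 5 dph values of each gene lay close together and below all 10 dph values. mcm5, in contrast to the mitotic genes, had 80.9, 58.7 and 101 CPM at 10 dph, against 61.4 and 64.5 CPM at 5 dph. These ages overlapped. With 1 library left at 5 dph, assumed to vary like the other groups, 4 members passed without 5 dph high replicate 2 and 10 without replicate 3. In the same step 9 of 13 fast muscle markers rose and 0 fell, with summed levels from 56300 to 67900 CPM at 10 dph and from 36500 to 42300 CPM at 5 dph. Of the gut markers 5 of 15 rose and 3 fell, and of the neural progenitor markers 3 of 9 rose; the part of these markers in the result was not tested.

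From 10 to 15 dph in high DHA larvae, most replication members that changed rose and most mitotic members that changed fell. In all 17 members rose and 15 fell (20.0% and 17.6%), shares close to the 18.7% and 20.2% of all tested genes, with a members' median log2 fold change of 0.04. The division by role was uneven. Among origin and helicase rows 6 of 17 rose and 0 fell, and among polymerase and nucleotide rows 7 of 17 rose and 2 fell. Among spindle rows 0 rose and 4 of 6 fell, among kinetochore rows 0 rose and 4 of 10 fell, and among condensin and topoisomerase rows 0 rose and 2 of 9 fell. Of the anaphase-promoting complex rows CDC16 and Cdc16 rose, by 0.40 each, and CDC20 fell. The mitosis partners described below did not lean toward falls in this step. The cyclins and kinases were split the same way: cdk2 and ccne1, which act at the start of S phase, rose, and ccnb2 and CCNB3, cyclins of mitosis, fell.

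orc2, an origin recognition subunit, had 26.9, 22.7 and 29.3 CPM at 15 dph, against 17.2, 13.5 and 17.2 CPM at 10 dph in high DHA larvae. Its log2 fold change was 0.72 ± 0.14 (SE, edgeR adjusted p = 4e-04), with the ages apart. rrm1 had 186, 174 and 211 CPM at 15 dph, against 128, 109 and 143 CPM at 10 dph (0.59 ± 0.15, edgeR adjusted p = 0.0038). cdk2 had 25.7, 23.4 and 24.8 CPM at 15 dph, against 17.7, 13.7 and 17.8 CPM at 10 dph (0.59 ± 0.12, edgeR adjusted p = 0.00097). In all 3 genes the 10 dph library of replicate 2 was the lowest.

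Among genes that fell, cenpa, the histone that marks centromeres, had 3.36, 2.38 and 3.58 CPM at 15 dph, against 5.56, 5.14 and 5.33 CPM at 10 dph in high DHA larvae. The log2 fold change was -0.78 ± 0.18 (SE, edgeR adjusted p = 0.002). CDC20 had 14.7, 15.3 and 14.9 CPM at 15 dph, against 19.9, 21 and 25.3 CPM at 10 dph (-0.56 ± 0.11, edgeR adjusted p = 0.00062). The 15 dph values of CDC20 were nearly equal and below all 10 dph values. TOP2A had 41.6, 31.7 and 33.8 CPM, against 53.4, 51.1 and 46.5 CPM (-0.50 ± 0.12, edgeR adjusted p = 0.0032). Plk1, a kinase of mitotic entry and spindle assembly, had 22.8, 18.6 and 19.6 CPM, against 29.8, 25.1 and 31 CPM (-0.49 ± 0.12). rrm2 fell as well, by 0.42 ± 0.15, while its partner rrm1 rose. Without 10 dph high replicate 2, 8 members rose and 13 fell; with the length score as a covariate 15 rose and 15 fell, 21 of these 30 among the 32. In the same step 7 of 9 neural progenitor markers, 8 of 13 fast muscle markers and 9 of 15 gut markers fell, and 6 of 10 epidermis markers rose; their part in the result was not tested.

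**Figure D3:**
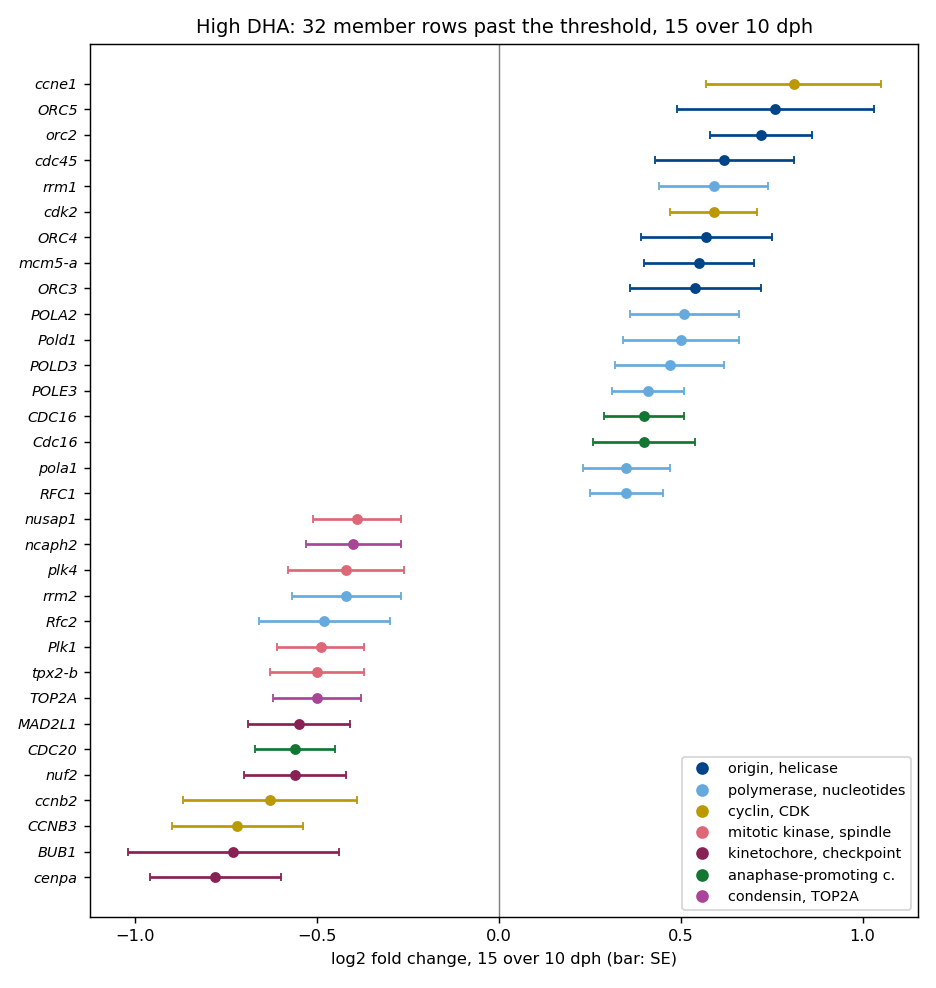
Log2 fold change with its SE (x axis) of the 32 member rows that passed an adjusted p under 0.05 for 15 over 10 dph in high DHA larvae (y axis), coloured by role. Rows to the right of 0 are mostly origin, helicase and polymerase genes, up to ccne1 at 0.81, and rows to the left mostly mitotic genes, down to cenpa at -0.78.

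Among larvae of 5 dph few members differed between DHA levels. By edgeR 0 of 85 passed for high over low DHA (6 genes in all passed, 0.0823%). At an unadjusted p under 0.05 there were 13 of 85 members, and 790 of all 7292 tested genes. The members' median log2 fold change was 0.13, with 65 of 85 above 0. DESeq2 also called 0, while a fit of only these groups called 15 members (14 higher, 1 lower). The share of all genes called in that fit is not given here, so its 15 calls cannot be set against a background. The smallest p was that of CDC20, with 16.8 and 18.7 CPM in high DHA larvae, against 13.3, 14 and 12 CPM in low DHA larvae (0.44 ± 0.13, edgeR adjusted p = 0.2). Cdk6, a kinase of the G1 phase, had 47.8 and 49.4 CPM in high DHA larvae, against 37.3, 37.1 and 35.7 CPM in low DHA larvae (0.40 ± 0.12, edgeR adjusted p = 0.22). Neither gene overlapped between the levels, and neither passed. High over medium DHA at 5 dph gave 0 calls by edgeR (0% of all genes) and by DESeq2. At an unadjusted p under 0.05 there were 7 of 85 members, and 1417 of all 7292 tested genes.

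For medium over low DHA at 5 dph 3 members rose and 0 fell (3.53% and 0%), against 16.7% and 10.4% of all tested genes. All 3 belong to the rows with a main role elsewhere. Aurkaip1, known in mammals as a protein of the mitochondrial ribosome, rose by 0.48 ± 0.14 on the log2 scale (SE, edgeR adjusted p = 0.016), cdc37 by 0.28 ± 0.093 and Cdc40 by 0.26 ± 0.089. These calls rest on medium replicate 2 among others: 0 members passed without it, 0 without low replicate 3, 1 without low replicate 1, low replicate 2 or medium replicate 1, and 10 without medium replicate 3. Under a length score covariate 0 passed.

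At 10 dph medium DHA larvae had lower levels of most members than low DHA larvae. Of the 85 members 34 fell and 4 rose (40.0% and 4.71%), against 10.6% and 24.3% of all tested genes, with a median log2 fold change of -0.33 for the members and -0.03 for all genes. All 34 falls were without overlap between the levels (9.19% of all genes fell so). The falls took 10 of 17 origin and helicase rows, 8 of 17 polymerase and nucleotide rows, 5 of 11 cyclin and kinase rows, 3 of 6 spindle rows, 4 of 10 kinetochore rows, 2 of 9 condensin rows, CDC20 and Aurkaip1, a row with a main role elsewhere (-0.41 ± 0.14, SE, edgeR adjusted p = 0.02). The same 10 dph libraries also enter the age steps in low and medium DHA larvae, so this comparison is not independent of those steps.

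Among the MCM rows, mcm2 had 59.2, 53.3 and 69 CPM in medium DHA larvae at 10 dph, against 109, 92.7 and 102 CPM in low DHA larvae (-0.74 ± 0.17, SE, edgeR adjusted p = 0.0014). mcm5 had 47.9, 75.2 and 77 CPM, against 117, 122 and 105 CPM (-0.78 ± 0.18, edgeR adjusted p = 0.0015). MCM7 had 112, 124 and 139 CPM, against 190, 174 and 184 CPM (-0.54 ± 0.11, edgeR adjusted p = 0.00053). Each medium DHA library was below each low DHA library, and replicate 1 of medium DHA was the lowest for mcm5 and MCM7. Mcm3, mcm4 and mcm5-a fell by 0.78, 0.63 and 0.62. The largest fall was that of CDC6, with 2.77, 3.97 and 3.75 CPM in medium DHA larvae, against 8.32, 8.9 and 8.83 CPM in low DHA larvae (-1.31 ± 0.26, edgeR adjusted p = 0.00054). ORC1, the largest origin recognition subunit, had 7.99, 5.81 and 8.21 CPM, against 12.1, 15 and 13.6 CPM (-0.88 ± 0.22).

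Downstream of licensing, rrm2 had 36.1, 60.1 and 52.2 CPM in medium DHA larvae at 10 dph, against 81.7, 66.9 and 75.3 CPM in low DHA larvae (-0.60 ± 0.15, SE, edgeR adjusted p = 0.0035). The clamp loader rows Rfc2, RFC3, Rfc4 and Rfc5 fell by 0.62, 0.42, 0.50 and 0.35 on the log2 scale. cdk1 had 20.8, 25.2 and 24.8 CPM, against 34, 37.6 and 39.3 CPM (-0.65 ± 0.13, edgeR adjusted p = 0.00061). CDC20 had 17.3, 18.5 and 18.1 CPM, against 26.2, 26.3 and 26 CPM (-0.54 ± 0.11, edgeR adjusted p = 0.00064). MAD2L1, the spindle checkpoint protein that holds CDC20 back, had 14, 16.4 and 17.2 CPM, against 22.9, 22.6 and 25 CPM (-0.56 ± 0.13). No library of medium DHA reached the low DHA values of these genes. The 4 rises were Cdk6, whose levels overlapped, and 3 rows with a main role elsewhere, cdc37l1 (1.00 ± 0.20), mcm9 (1.05 ± 0.26) and CDC73 (0.27 ± 0.068).

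The length score at 10 dph was -2.60 ± 0.129 in medium DHA and -3.49 ± 0.490 in low DHA larvae (SD, n = 3 each). With it as a covariate 9 members passed, all falls and 7 of them among the 38, while the members' median was -0.39; without 10 dph medium replicate 1 there were 25. Between these groups 7 of 9 neuron markers and 7 of 10 epidermis markers rose, and 4 of 9 neural progenitor markers fell. Of the fast muscle markers with the smallest p, acta1, PGAM2 and TNNT3 fell by 0.86, 0.60 and 0.40, and RYR1 rose by 0.37. The red blood cell markers EPB41 and Ank1 rose by 0.86 and 0.78, and TFRC and alas2 did not pass. Summed neuron markers ran from 820 to 849 CPM in medium DHA and from 479 to 679 CPM in low DHA larvae. Summed epidermis markers ran from 883 to 1030 and from 597 to 688 CPM. The part of all these markers in the result was not tested.

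For high over low DHA at 10 dph few members passed, and none of them was a spindle, kinetochore or condensin row. Of the 85 members 7 fell and 2 rose (8.24% and 2.35%), against 4.39% and 19.4% of all tested genes, with a median log2 fold change of -0.16. mcm5 had 80.9, 58.7 and 101 CPM in high DHA larvae, against 117, 122 and 105 CPM in low DHA larvae (-0.52 ± 0.18, SE, edgeR adjusted p = 0.038). MCM7 had 143, 127 and 162 CPM, against 190, 174 and 184 CPM (-0.34 ± 0.11, edgeR adjusted p = 0.027). Replicate 2 of high DHA was the lowest for both, and no library overlapped. CDC16 and Cdc16, separate rows for a subunit of the anaphase-promoting complex, fell by 0.35 and 0.40, and mcm5-a by 0.42. Separate values within the pairs CDC16 and Cdc16, and mcm5 and mcm5-a, are uncertain. Aurkaip1 and Cdc40, rows with a main role elsewhere, fell by 0.46 and 0.26. Cdk6 rose by 0.39 ± 0.11. The other rise was that of cdc37l1, a row with a main role elsewhere whose levels overlapped (0.70 ± 0.20).

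By role, the median log2 fold change for high over low DHA at 10 dph was -0.33 over origin and helicase rows, 0 of 17 above 0, and -0.26 over polymerase and nucleotide rows. It was 0.05 over spindle rows, -0.03 over kinetochore rows and 0.01 over condensin rows. The calls in this comparison were few and depended on single libraries: 0 members passed without high replicate 2, 2 without high replicate 1, 1 without low replicate 2 and 5 without low replicate 3. Under a length score covariate, and in a fit of only these groups, 0 passed. Between these groups 5 of 9 neuron and 5 of 10 epidermis markers rose; their part in the result was not tested. High over medium DHA at 10 dph gave 0 calls by edgeR (0.137% of all genes) and 1 call by DESeq2. At an unadjusted p under 0.05 there were 27 of 85 members, and 1222 of all 7292 tested genes. The smallest p was that of nuf2, with 12, 10.8 and 12.1 CPM in high DHA larvae, against 7.35, 9.25 and 6.98 CPM in medium DHA larvae (0.57 ± 0.14, edgeR adjusted p = 0.071).

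**Figure D4:**
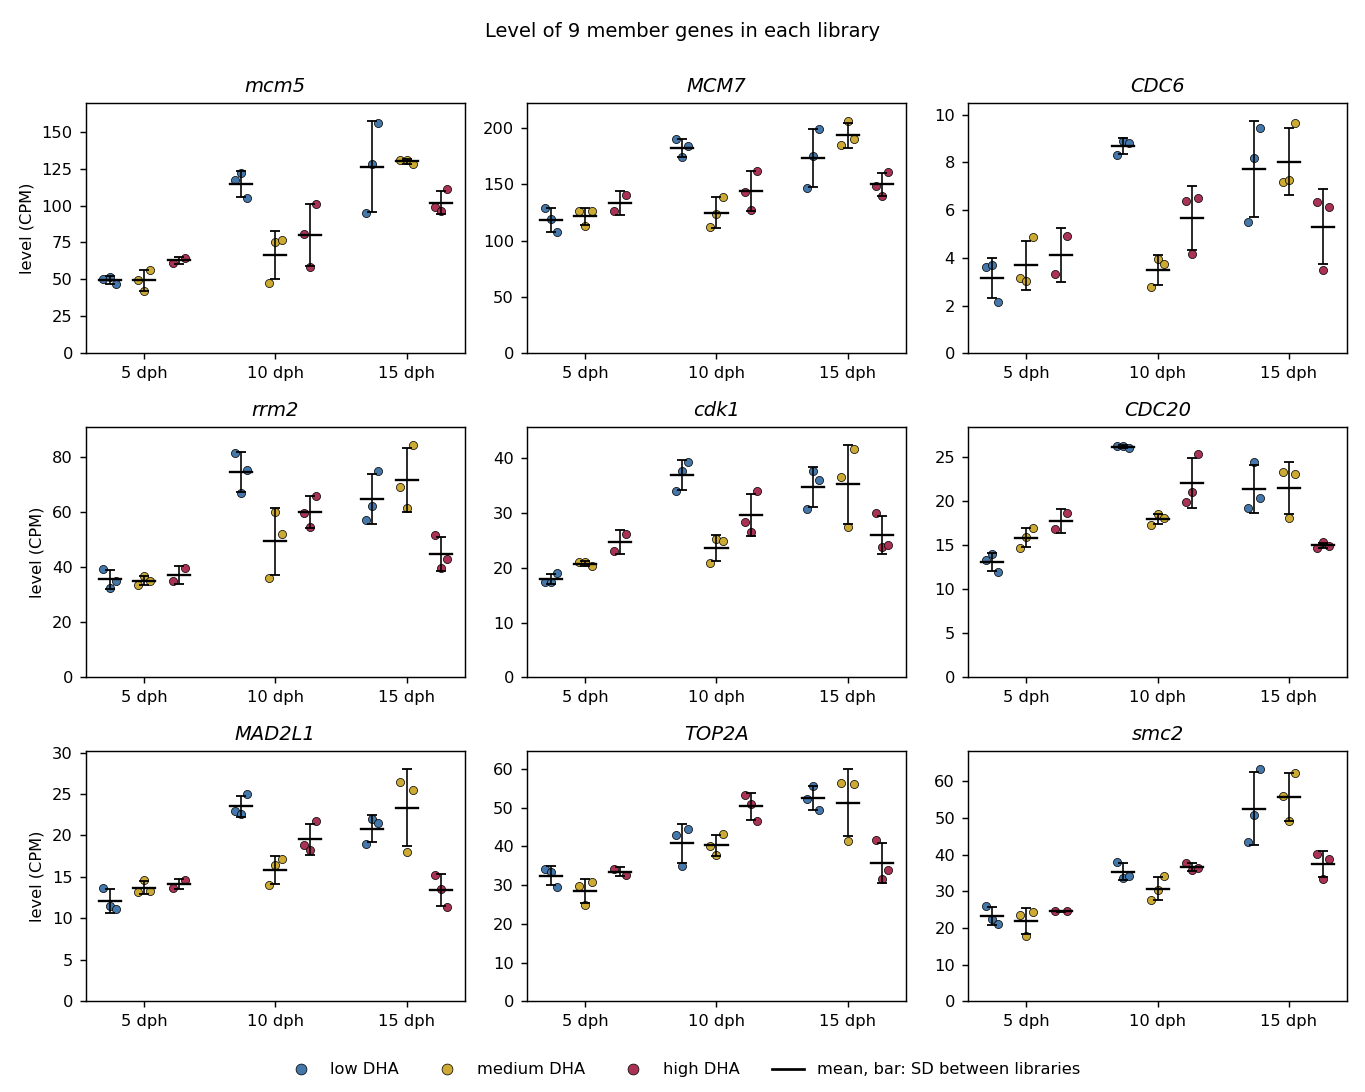
Level in CPM (y axis, from 0) of 9 member genes in every library (points), by age (x axis) and DHA level (colour, low to high from left to right), with group means and SD bars. At 10 dph low DHA lies above medium DHA for mcm5, MCM7, CDC6, rrm2, cdk1, CDC20 and MAD2L1, and at 15 dph high DHA lies below low DHA for rrm2, cdk1, CDC20, MAD2L1, TOP2A and smc2.

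At 15 dph the members were lower in high DHA than in low DHA larvae, and most members that passed were genes of mitosis. Of the 85 members 14 fell and 0 rose (16.5% and 0%), against 4.47% and 2.99% of all tested genes. The median log2 fold change was -0.27 for the members and 0 for all genes, and 72 of 85 members were below 0. All 14 falls were without overlap (4.09% of all genes). They took 7 of 9 condensin and topoisomerase rows, 3 of 10 kinetochore rows, 2 of 11 cyclin and kinase rows, 1 of 17 polymerase and nucleotide rows and CDC20. Of the origin and helicase rows 0 of 17 passed, with a median of -0.21. Their sum spread widely in low DHA larvae at 15 dph, from 554 to 849 CPM, against 535 to 666 CPM in high DHA larvae. The partner genes described below did not lean toward mitosis in this comparison.

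MAD2L1 had 15.2, 13.6 and 11.4 CPM in high DHA larvae at 15 dph, against 19, 22 and 21.5 CPM in low DHA larvae (-0.63 ± 0.13, SE, edgeR adjusted p = 0.0056). spc24, a kinetochore subunit of the complex that also holds nuf2, had 5.15, 4.41 and 3.8 CPM, against 6.32, 6.94 and 7 CPM (-0.60 ± 0.17, edgeR adjusted p = 0.031). TOP2A had 41.6, 31.7 and 33.8 CPM, against 52.2, 55.7 and 49.5 CPM (-0.56 ± 0.12, edgeR adjusted p = 0.0075). For each of these genes the highest high DHA library was below the lowest low DHA library. CDC20 had 14.7, 15.3 and 14.9 CPM in high DHA larvae, against 19.2, 24.4 and 20.4 CPM in low DHA larvae (-0.51 ± 0.11, edgeR adjusted p = 0.0071). rrm2 had 51.7, 39.6 and 42.9 CPM, against 57.1, 62.2 and 75 CPM (-0.53 ± 0.15, edgeR adjusted p = 0.033). Among the polymerase and nucleotide rows rrm2 was the 1 that passed. nuf2, CCNA2, which serves both S phase and mitotic entry, and cdk1 fell by 0.53, 0.44 and 0.42.

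Condensin is built on SMC2 and SMC4, joined by condensin I subunits (NCAPD2, NCAPG, NCAPH) or condensin II subunits (NCAPD3, NCAPG2, NCAPH2). smc2 had 40.1, 33.5 and 38.8 CPM in high DHA larvae at 15 dph, against 43.6, 50.9 and 63.3 CPM in low DHA larvae (-0.49 ± 0.13, SE, edgeR adjusted p = 0.02). smc4 had 68.4, 68 and 64.1 CPM, against 82.3, 83.4 and 85.7 CPM (-0.33 ± 0.079, edgeR adjusted p = 0.013). The levels of smc4 differed little within a group, and the groups lay well apart. ncapd2 and ncapg fell by 0.46 and 0.41, and NCAPD3 and ncaph2 by 0.53 and 0.56, so both forms of the complex had falling subunits.

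The count for high over low DHA at 15 dph depended on which libraries were in the fit, with 3 calls without high replicate 2, 8 without high replicate 3, 5 without low replicate 2, 4 without low replicate 3 and 30 (28 falls) without low replicate 1; a fit of only these groups gave 2. Summed levels of epidermis markers ran from 1090 to 1250 CPM in high DHA and from 752 to 792 CPM in low DHA larvae, with 6 of 10 markers higher. Those of gut markers ran from 3370 to 3560 and from 4270 to 5240 CPM, with 7 of 15 lower and 1 higher, and 3 of 13 fast muscle markers were lower. The part of these markers in the result was not tested. Under a length score covariate 20 members fell, 13 of them among the 14.

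High over medium DHA at 15 dph gave the larger set of falls. Of the 85 members 31 fell and 0 rose (36.5% and 0%), against 9.08% and 7.84% of all tested genes, with a median log2 fold change of -0.32, and 26 were without overlap (8.57% of all genes). The falls took 8 of 9 condensin and topoisomerase rows, 5 of 6 spindle rows, 4 of 10 kinetochore rows and 4 of 11 cyclin and kinase rows. They also took 7 of 17 polymerase and nucleotide rows, 2 of 17 origin and helicase rows and CDC20. This comparison and the one with low DHA share the high DHA libraries.

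MAD2L1 had 15.2, 13.6 and 11.4 CPM in high DHA larvae, against 26.5, 18 and 25.5 CPM in medium DHA larvae (-0.80 ± 0.13, SE, edgeR adjusted p = 0.0014). tpx2-b, a spindle assembly factor, had 19.3, 16.5 and 21.5 CPM, against 32.9, 25.3 and 29.2 CPM (-0.61 ± 0.13, edgeR adjusted p = 0.0043). aurkb, the kinase that corrects chromosome attachment, had 10.2, 11 and 10.2 CPM, against 16.4, 12.8 and 17.6 CPM (-0.58 ± 0.14, edgeR adjusted p = 0.0068). Replicate 2 was the lowest medium DHA library for these 3 genes, and it still lay above all high DHA libraries. Rfc2, a clamp loader subunit, had 30.4, 26.6 and 36.5 CPM, against 49.5, 54 and 53.1 CPM (-0.74 ± 0.18, edgeR adjusted p = 0.0088). MCM7 and mcm2 fell by 0.37 and 0.51. The count was 13 without high replicate 2 and 15 without medium replicate 3. Between these groups 4 of 10 epidermis markers rose, and 4 of 15 gut and 4 of 13 fast muscle markers fell; their part in the result was not tested. Medium over low DHA at 15 dph gave 0 calls by edgeR (0.0686% of all genes) and by DESeq2, with a median of 0.07. At an unadjusted p under 0.05 there were 3 of 85 members, and 658 of all 7292 tested genes.

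**Figure D5:**
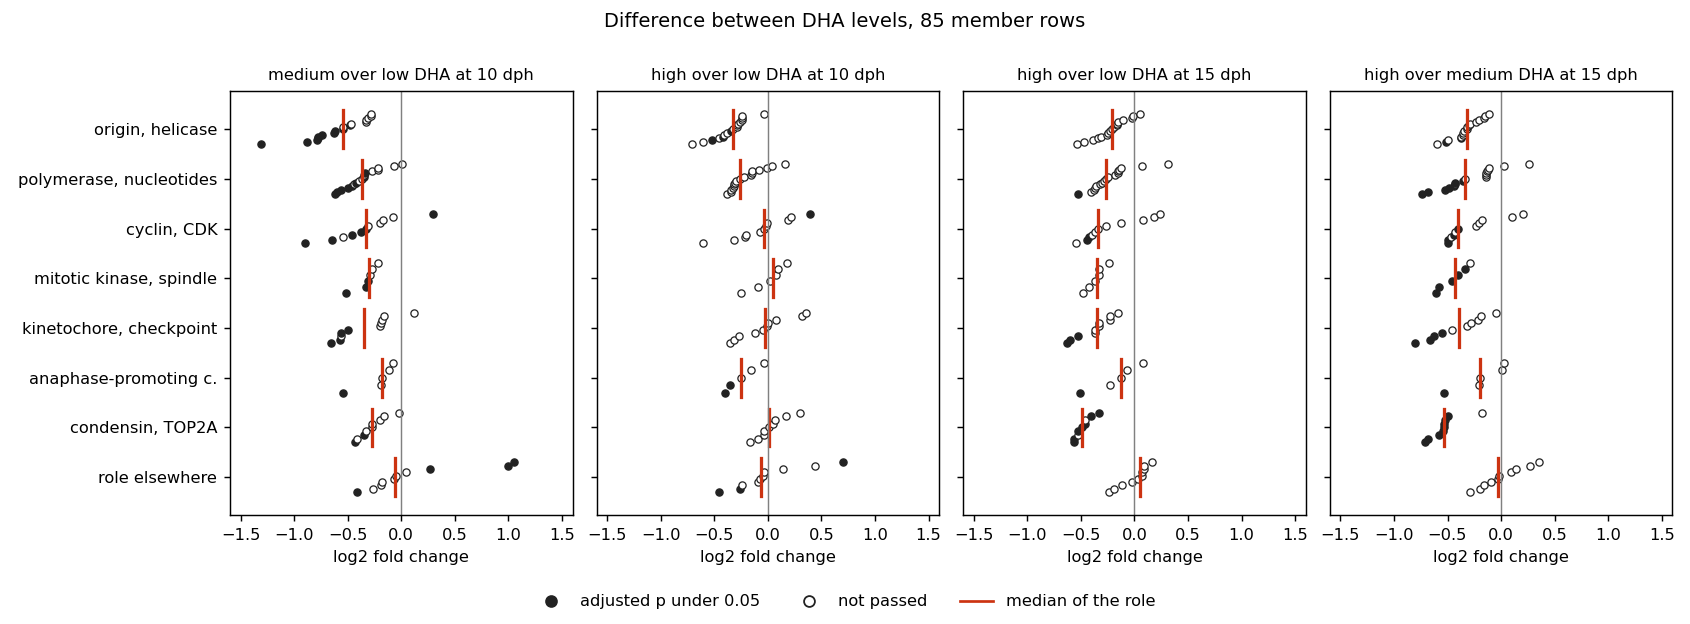
Log2 fold change between DHA levels (x axis) of each member row, by role (y axis), at 10 dph (medium over low, high over low) and 15 dph (high over low, high over medium); filled points passed an adjusted p under 0.05 and red lines are role medians. At 10 dph the medians lie farthest below 0 in origin and helicase rows (-0.54 and -0.33), and at 15 dph in condensin and topoisomerase rows (-0.49 and -0.53).

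Along the series of 3 DHA levels at 15 dph, 24 members fell and 0 rose per doubling of rotifer DHA, against 6.38% and 5.02% of all tested genes. These were 9 of 9 condensin and topoisomerase rows, 5 of 10 kinetochore rows, 4 of 6 spindle rows, 4 of 11 cyclin and kinase rows, rrm2 and CDC20, and 0 of 17 origin and helicase rows. MAD2L1 changed by -0.29 ± 0.055 per doubling (SE, edgeR adjusted p = 0.002) and TOP2A by -0.24 ± 0.050 (edgeR adjusted p = 0.0035). TOP2A averaged 52.5 ± 3.10 CPM with low, 51.3 ± 8.6 CPM with medium and 35.7 ± 5.19 CPM with high DHA (SD, n = 3 each), and the lowest medium DHA library lay within the range of high DHA. MAD2L1 averaged 20.8 ± 1.62 CPM with low, 23.3 ± 4.69 CPM with medium and 13.4 ± 1.92 CPM with high DHA, and so was not ordered by dose. For medium over low DHA at this age 60 of 85 members had a log2 fold change above 0 and 0 passed, whereas for high over medium DHA 75 of 85 lay below 0. The trend had 5 calls without high replicate 2, 13 without high replicate 3, 12 and 9 without low replicates 2 and 3, and 42 without low replicate 1; a fit of only the 15 dph groups had 11.

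Whether a dose difference itself changed with age was tested as a difference of differences. For high over low DHA, 9 members had a lower value at 10 than at 5 dph and 0 a higher one, against 4.53% and 13.6% of all tested genes. Among them were CDC20 (-0.69 ± 0.17, SE, edgeR adjusted p = 0.013), cdk1 (-0.78 ± 0.20) and mcm5 (-0.86 ± 0.27). From 10 to 15 dph 2 members, TOP2A (-0.86 ± 0.17, edgeR adjusted p = 0.01) and CENPF (-0.68 ± 0.17), had a lower value and 0 a higher one (2.98% and 0.466% of all genes). These counts were 0 and 1 once the length score was a covariate. Leaving out single libraries gave 0 to 17 for the first, with 0 without 5 dph high replicate 3, 4 without 5 dph high replicate 2, 5 without 5 dph low replicate 3 or 10 dph high replicate 2, and 17 without 10 dph high replicate 3. The second ranged from 0, without 10 dph low replicate 2, to 4, without 10 dph low replicate 1 or 10 dph high replicate 3, and was 1 without 10 dph low replicate 3, 10 dph high replicate 1 or any 15 dph high library.

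Other changes of this kind were computed after the data were seen. For medium over low DHA from 5 to 10 dph, 27 members were lower and 2 higher (20.5% and 22.7% of all tested genes). From 10 to 15 dph 25 were higher and 3 lower (6.68% and 19.7%), and without 10 dph medium replicate 1 there were 18 calls. Both counts were 0 once the length score was a covariate, with medians of -0.44 and 0.51. For high over medium DHA from 10 to 15 dph, 38 members were lower and 1 higher (8.79% and 8.98% of all genes), among them 9 of 9 condensin and topoisomerase rows, 6 of 6 spindle rows and 6 of 10 kinetochore rows, with 37 calls under the length score.

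Genes that work beside the members were taken from lists of known function. The 30 replication fork partners hold, among others, lig1 and fen1, which join and trim the pieces of the lagging strand, and chaf1a, which packs new DNA into chromatin. For high over low DHA at 15 dph 5 of 30 fell and 0 rose (16.7% and 0%, against 4.47% and 2.99% of all tested genes), with a median log2 fold change of -0.31. For high over medium DHA 11 fell and 0 rose (36.7% and 0%, against 9.08% and 7.84%). lig1 fell by 0.37 ± 0.11 in high DHA compared with low DHA larvae (SE, edgeR adjusted p = 0.042), and fen1 by 0.53 ± 0.16. For medium over low DHA at 10 dph 16 of 30 fell and 1 rose (53.3% and 3.33%, against 10.6% and 24.3%), and chaf1a fell by 0.74 ± 0.15. For 10 over 5 dph in low DHA larvae 24 of 30 rose and 1 fell (80.0% and 3.33%, against 30.3% and 28.9% of all tested genes). For 15 over 10 dph 27 rose and 0 fell in medium DHA larvae (90.0% and 0%, against 17.2% and 15.6%), and 13 rose and 0 fell in high DHA larvae (43.3% and 0%, against 18.7% and 20.2%).

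The 52 mitosis partners include kinesins, kinetochore subunits and members of the aurora B complex. For high over low DHA at 15 dph 8 of 52 fell and 0 rose (15.4% and 0%, against 4.47% and 2.99% of all tested genes), with a median log2 fold change of -0.34. For high over medium DHA 13 fell and 0 rose (25% and 0%, against 9.08% and 7.84%). The share of falls was thus near that of the fork partners compared with low DHA, and below it compared with medium DHA. Dsn1 and ndc80, kinetochore subunits, fell by 0.73 ± 0.17 and 0.51 ± 0.12 in high DHA compared with low DHA larvae (SE, edgeR adjusted p = 0.0097 and 0.013), and kif11, the motor that separates spindle poles, by 0.55 ± 0.15. For 15 over 10 dph in high DHA larvae 6 of the 52 rose and 6 fell (11.5% each), below the 18.7% and 20.2% of all tested genes.

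Of the 14 cell cycle transcription factors 1 rose and 0 fell for high over low DHA at 15 dph (7.14% and 0%, against 2.99% and 4.47% of all tested genes). RBL2, a relative of the retinoblastoma protein that holds cell cycle genes silent in resting cells, rose in high DHA compared with low DHA larvae at 15 dph by 0.79 ± 0.19 (SE, edgeR adjusted p = 0.013) and compared with medium DHA larvae by 1.05 ± 0.19 (edgeR adjusted p = 0.0019). It was also higher in medium than in low DHA larvae at 10 dph, by 0.86 ± 0.19 (edgeR adjusted p = 0.0012). In that comparison e2f7 fell by 0.78 ± 0.16 (edgeR adjusted p = 0.00059), and no other of the 14 factors passed. Of all tested genes 24.3% rose and 10.6% fell there. RB1, the retinoblastoma gene itself, rose from 10 to 15 dph by 0.61, 0.72 and 0.67 in low, medium and high DHA larvae. Of all tested genes 26.6%, 17.2% and 18.7% rose in these steps. Other factors of the list changed as well. In low DHA larvae E2f3 and MYBL2 rose by 0.66 and 0.62, and myc fell by 0.69. In medium DHA larvae e2f7 and E2f2 rose by 1.19 and 0.76, and RBL2 fell by 1.13. In high DHA larvae e2f4 rose by 0.54, and myc fell by 0.78. MYBL2, an activator of mitotic genes, fell by 0.48 ± 0.13 in high DHA compared with medium DHA larvae at 15 dph (edgeR adjusted p = 0.018), and Foxm1, another such activator, stood at -0.58 ± 0.22 for high over low DHA without passing (edgeR adjusted p = 0.12). Among the 20 G1 cyclins and brakes 3 rose and 2 fell for medium over low DHA at 10 dph (15.0% and 10.0%), at or below the 24.3% and 10.6% of all tested genes.

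The 10 rows with a main role elsewhere were described apart. Between high and low DHA at 15 dph 0 of the 10 passed, with a median log2 fold change of 0.05 and 6 above 0, and for high over medium DHA 0 passed, with a median of -0.02. In the low DHA step from 5 to 10 dph 2 rose, and cdc37l1, mcm9 and CDC73 fell. mcm9, a helicase of recombination repair, had 4.47, 1.7 and 3.35 CPM at 10 dph, against 5.65, 6.3 and 6.73 CPM at 5 dph (-0.96 ± 0.26, SE, edgeR adjusted p = 0.0031), and its value turned positive with the length score as a covariate (0.20).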

How the data were processed

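RNA from whole larvae was sequenced, and the authors deposited a table of whole-number counts per gene name for 26 libraries. Per the title of the deposited table the counts were summed, over what no source says. The submitters' processing notes name DESeq2; aligner, counter, build and annotation were not given in the sources used here. Another 4 samples with no column in the table were not analysed here. The counts were tested with edgeR 4.0.16 in R 4.3.3 (TMM scaling, filterByExpr over the 9 groups, robust quasi-likelihood F-test on group means of all 26 libraries), with Benjamini-Hochberg adjustment over the 7292 genes tested and a threshold of 0.05. Standard errors were derived from the F statistic. The biological coefficient of variation was 11.9%. Alternatives were DESeq2 1.42.0, other size factors, no filter, replicate blocks, a length score covariate, fits of the compared groups only, summed same-name rows and leaving out libraries. Symbols of 77 members matched a RefSeq gene table. The genes named in a comparison were mostly chosen among those with large fold changes or small p in their role or list. Not every such gene was named. Marker lists with changes were also not all named in each comparison. Members and lists were chosen with earlier results of these data known.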

Additional observations from a re-analysis of the deposited data

Results flagged for a closer look

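Several dose differences changed with age by a test of the difference itself, on the log2 scale. For high over low DHA at 10 dph minus at 5 dph, 9 members passed: Aurkaip1 (-0.86), mcm5 (-0.86), cdk1 (-0.78), CDC20 (-0.69), CENPI (-0.69), Orc5 (-0.68), mcm5-a (-0.68), Cdc40 (-0.56) and MCM7 (-0.51). For high over low DHA at 15 dph minus at 10 dph, 2 passed, TOP2A (-0.86) and CENPF (-0.68). All were falls in the difference, for 10.6% and 2.35% of members, against 4.53% and 2.98% of all tested genes. The second share was thus below that of all genes. Among the 9, Aurkaip1 and Cdc40 are rows with a main role elsewhere, and mcm5 and mcm5-a are a pair with uncertain separate values. How these counts change with the length score is given further below.

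The comparisons that follow were added after the data were seen. For medium over low DHA at 10 dph minus at 5 dph, 29 members passed, among them Rfc2 (-1.06), Aurkaip1 (-0.89), cdk1 (-0.86), CDC20 (-0.82), ccnb1 (-0.77) and mcm9 (1.47). Of the members 31.8% were lower and 2.35% higher, against 20.5% and 22.7% of all tested genes. For medium over low DHA at 15 dph minus at 10 dph, 28 passed, among them mcm2 (0.99), MAD2L1 (0.73), MCM7 (0.70), CENPI (0.68), Rfc4 (0.66) and cdc37l1 (-1.20). Here 29.4% were higher and 3.53% lower, against 6.68% and 19.7% of all tested genes. For high over medium DHA at 15 dph minus at 10 dph, 39 passed, among them nuf2 (-1.23), NCAPD3 (-1.16), MAD2L1 (-1.10), ncaph2 (-1.06), tpx2-b (-0.99) and CDC20 (-0.82). In this change 44.7% were lower and 1.18% higher, against 8.79% and 8.98% of all tested genes. All changes in this paragraph use the 10 dph medium DHA libraries, so they are not independent of each other.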

How the results depend on the processing

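Counts are members past the threshold. Shares of all tested genes under these settings are not given here. With the length score as a covariate, medium over low DHA at 5 dph had 0 (3 in the fit as reported), high over low DHA at 10 dph 0 (9), medium over low DHA at 10 dph 9 (38), 10 over 5 dph in low DHA 35 (70), 15 over 10 dph in low DHA 1 (23) and 10 over 5 dph in medium DHA 9 (21). The change of high over low DHA had 0 (9) for 10 minus 5 dph and 1 (2) for 15 minus 10 dph, and that of medium over low DHA 0 (29) and 0 (28). Signs turned under this covariate for POLE4 (-0.05) and mcm9 (0.20) at 10 over 5 dph in low DHA, TOP2A (-0.03) and mcm9 (-0.23) at 15 over 10 dph in low DHA, and cdc37l1 (-0.03) and mcm9 (-0.25) in the change of medium over low DHA from 5 to 10 dph. The cause was not tested.

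In fits of only the compared groups, high over low DHA had 15 at 5 dph, 0 at 10 dph and 2 at 15 dph, medium over low DHA at 5 dph had 0, 15 over 10 dph in low DHA 11, 10 over 5 dph in medium DHA 6, the 15 dph trend 11, and the change from 10 to 15 dph 0 for high over low and 18 for medium over low DHA; these fits hold fewer samples. Without the 2 libraries of lowest TMM factor, medium over low DHA at 5 dph had 0, high over low DHA at 10 dph 3, 15 over 10 dph in low DHA 15, 10 over 5 dph in medium DHA 13, the change of high over low DHA from 10 to 15 dph 1 and that of medium over low DHA from 5 to 10 dph 17. DESeq2 size factors gave 1 for medium over low DHA at 5 dph. DESeq2 gave 1 for high over medium DHA at 10 dph and 4 for the change of high over low DHA from 10 to 15 dph.

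Leaving out each library in turn gave 0 to 10 for medium over low DHA at 5 dph, 0 to 13 for high over low and 25 to 43 for medium over low DHA at 10 dph, 3 to 30 for high over low and 13 to 30 for high over medium DHA at 15 dph, and 5 to 42 for the trend. Between ages it gave 14 to 23 for 15 over 10 dph in low DHA, 7 to 28 for 10 over 5 dph in medium DHA, 4 to 22 for 10 over 5 dph and 21 to 28 for 15 over 10 dph in high DHA, 0 to 17 and 0 to 4 for the changes of high over low DHA, and 18 to 35 for that of medium over low DHA from 10 to 15 dph.

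Replicate numbers are shared between groups. Same-numbered libraries of a DHA level at different ages had correlations of -0.154 to 0.302 (median 0.0812), with 11 of 25 over 0.1. Other-numbered libraries of a level had -0.338 to 0.166 (median -0.0317), with 8 of 50 over 0.1. Between levels at the same age, 12 of 25 same-numbered and 12 of 50 other-numbered pairs were over 0.1. Same-numbered libraries were thus weakly more alike by median, with overlapping ranges, so pairing by number was not excluded. With the number as a replicate block, 449 of 456 member calls held and the change of high over low DHA from 10 to 15 dph had 4; the sample number of the treatment label as a block also gave 4.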
